A study of Mus musculus with 18 samples.

Results

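The metallothioneins are small cysteine-rich proteins that bind zinc and copper, and the series holds 4 probe sets for 3 of their genes, Mt1, Mt2 and Mt3. They were taken as every probe set of the array that the platform annotation assigns to only one of these symbols, which found 4 of the 45101 probe sets in the table. Mt1 is read by 2 probe sets, one with the name ending _s_at and one ending _at, and Mt2 and Mt3 are read by 1 each. Values given for Mt1 are those of the _s_at probe set, and the other is called the second Mt1 probe set. The 3 genes are among 18193 named by probe sets of 1 gene. The study injected eyes of 2-month-old male C57BL6/J mice once into the vitreous with triamcinolone (TAA in the labels), dexamethasone (DEX) or the control solution BSS, and took the retina at day 7 or day 30. The 6 groups are therefore TAA day 7, DEX day 7, BSS day 7, TAA day 30, DEX day 30 and BSS day 30, each with 3 biological replicates on 1 Affymetrix array apiece, 18 arrays in all. Control eyes were also injected, so an effect of the injection itself is shared by all groups, and an uninjected retina is not among the samples used here. No dose is given in the labels, and they do not say whether 2 arrays can come from the same animal.

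Metallothioneins hold zinc in clusters with their cysteines, buffer free zinc and copper, and take up reactive oxygen species. Transcription of Mt1 and Mt2 is induced by zinc through the metal-responsive transcription factor MTF-1, which binds metal response elements in their promoters, by glucocorticoids through the glucocorticoid receptor, and by cytokines of the interleukin-6 family through STAT3. Mt3, first described as a growth inhibitory factor of brain, is expressed mainly in the nervous system and is known to respond less to metals and glucocorticoids than Mt1 and Mt2. In the retina, metallothioneins have been described in Müller glia and pigment epithelium and are known to be raised after injury.

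The promoters are shown because the members lie side by side on chromosome 8 and were high on the same arrays. The sequences are RefSeq's (GRCm38.p6, plus strand), 250 bases before to 50 bases after each annotated start, in lower case. Capitals mark matches to the metal response element core, searched on both strands as TGCACNC and TGCGCNC.
Mt1 (chr8:94178839-94179138): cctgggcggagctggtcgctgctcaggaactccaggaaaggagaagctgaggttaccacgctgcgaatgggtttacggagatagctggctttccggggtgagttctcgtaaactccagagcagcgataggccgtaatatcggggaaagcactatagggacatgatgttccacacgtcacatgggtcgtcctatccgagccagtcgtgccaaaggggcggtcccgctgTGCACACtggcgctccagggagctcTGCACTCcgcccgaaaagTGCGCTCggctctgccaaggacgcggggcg
Mt2 (chr8:94172368-94172667): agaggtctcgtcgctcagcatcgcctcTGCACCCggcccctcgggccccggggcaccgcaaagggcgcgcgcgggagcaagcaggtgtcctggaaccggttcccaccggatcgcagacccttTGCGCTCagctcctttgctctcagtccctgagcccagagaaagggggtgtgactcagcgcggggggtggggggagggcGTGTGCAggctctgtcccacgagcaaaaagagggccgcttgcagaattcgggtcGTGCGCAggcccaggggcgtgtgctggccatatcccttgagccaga
Mt3 (chr8:94152357-94152656): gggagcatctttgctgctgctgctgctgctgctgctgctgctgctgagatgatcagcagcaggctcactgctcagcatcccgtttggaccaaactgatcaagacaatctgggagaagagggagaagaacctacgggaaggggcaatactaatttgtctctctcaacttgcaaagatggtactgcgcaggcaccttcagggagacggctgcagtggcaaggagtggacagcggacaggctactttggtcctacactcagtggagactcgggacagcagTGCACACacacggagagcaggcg
The core occurred 4 times in the Mt2 window, 3 times in the Mt1 window and 1 time in the Mt3 window. Of the 32851 RefSeq promoter windows of 300 bases, 25.7% held at least 1 core, 1.97% at least 3 and 0.517% at least 4. A shortened glucocorticoid response element, a pattern that reads the same on both strands, had 1 match, in the Mt1 window at bases 157 to 169, and 0.475% of all windows held one. The antioxidant response element core TGACNNNGC, on both strands, had 1 match in the Mt2 window at bases 172 to 180, against 12.4% of all windows with at least 1. The STAT pattern TTCNNNGAA (8.3% of windows), the E-box CACGTG (7.15%) and the full glucocorticoid response element palindrome (0.00913%) had 0 matches in the 3 windows. None of the matches overlapped a match to another pattern. A match shows letters and not a bound site, and the absence of one says only that these letters are not in this window.

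The deposited values are RMA values on a log2 scale, centred so that each probe set has a median of 0 over the 18 arrays. They give differences between arrays and no level, so Mt1, Mt2 and Mt3 cannot be ranked by abundance, and the labelled tissue cannot be checked by whether retinal markers are present. Below, a relative value is the log2 value of a probe set on 1 array, and a difference is one group mean minus another in log2 units, with its standard error (SE, n = 3 arrays a group). The SD over all probe sets was 0.349 on the TAA day 30 array of replicate 2 and 0.338 on the day 7 array of the same number, and it lay between 0.146 and 0.296 on the other 16 arrays. Within groups the members varied more than most probe sets, with residual SDs of 0.40 for Mt1, 0.54 for Mt2 and 0.32 for Mt3, against a median of 0.17 over all probe sets tested. The second Mt1 probe set had a residual SD of 0.13. The arrays are bulk retina, so fewer cells of a type and less RNA per cell cannot be told apart.

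Triamcinolone at day 7 gave the highest group mean of Mt1, Mt2 and Mt3. Mt2 averaged 2.90 times the vehicle value, Mt1 2.14 times and Mt3 1.69 times. In each case 2 of the 3 TAA retinas carried the difference and the third, replicate 3, lay close to vehicle. Mt2, one of the 2 widely expressed metal-buffering forms, had relative values of 1.93, 2.08 and 0.26 on the TAA arrays, against -0.09, -0.19 and -0.07 on the BSS arrays. All 3 TAA arrays lay above all 3 BSS arrays, with replicates 1 and 2 far above and replicate 3 just above. The Mt2 difference was 1.54 ± 0.38 (SE; 95% interval 0.74 to 2.33).
Mt1, the other widely expressed form, had 1.63, 1.36 and 0.31 on the TAA arrays, against 0.11, -0.02 and -0.08 on the BSS arrays. These groups did not overlap either, and the difference was 1.10 ± 0.28 (95% interval 0.50 to 1.69). Mt3, the neural form, had 1.01, 1.38 and -0.05 on the TAA arrays, against 0.07, -0.01 and 0.0041 on the BSS arrays. Here the groups overlapped, because TAA replicate 3 was the lowest of the 6 arrays, and the difference was 0.76 ± 0.23 (95% interval 0.27 to 1.25). The second Mt1 probe set had 0.13, -0.08 and 0.20 on the TAA arrays, against -0.06, -0.02 and 0.02 on the BSS arrays, a difference of 0.10 ± 0.12 with overlapping groups.

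**Figure D1:**
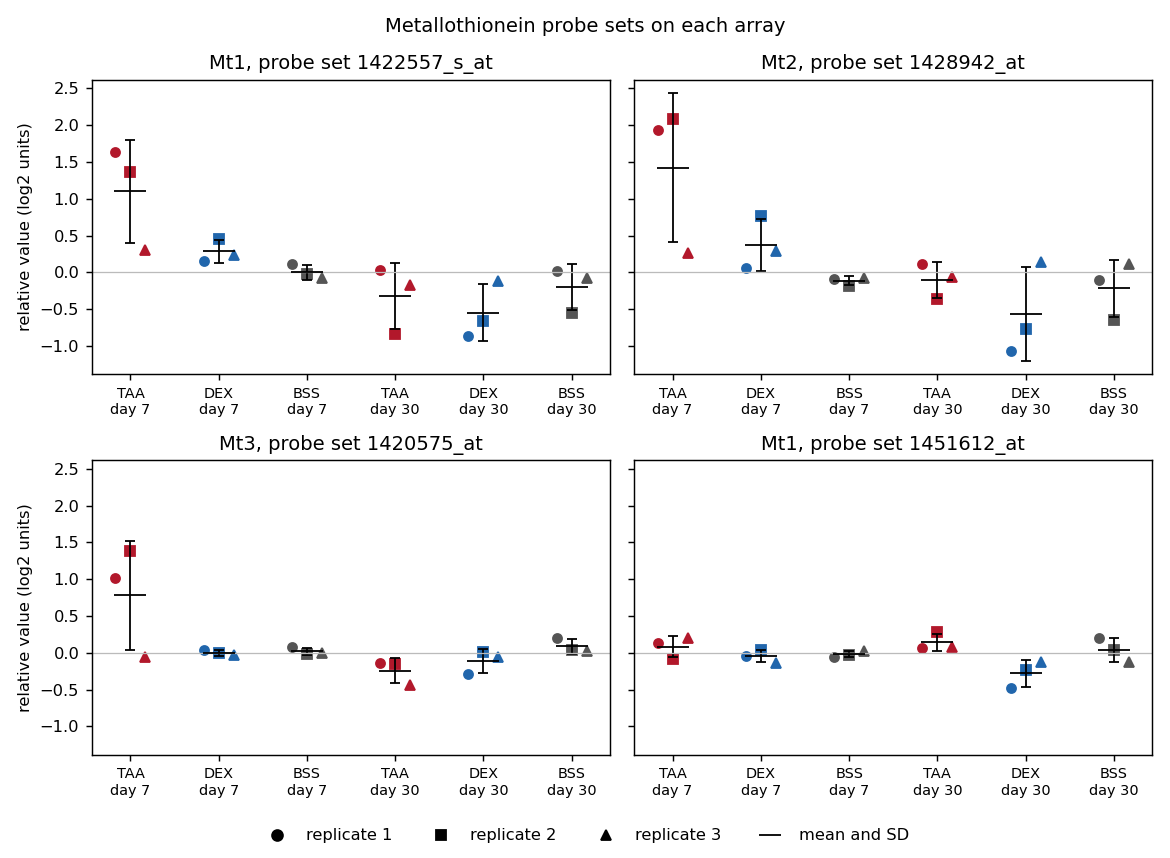
Relative log2 value of each metallothionein probe set (vertical axis) on every array, by group (horizontal axis); symbols mark replicates, and bars show the group mean and SD (n = 3). TAA day 7 replicates 1 and 2 lie between 1.01 and 2.08 for Mt1, Mt2 and Mt3, and replicate 3 lies at 0.31, 0.26 and -0.05.

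By limma over the 34945 probe sets that name 1 gene, 0 of the 4 member probe sets passed in this comparison after Benjamini-Hochberg adjustment (adjusted p = 0.813 for Mt2, 0.92 for Mt1 and 1 for Mt3 and the second Mt1 probe set), where 0.00286% of all probe sets passed. An unadjusted p under 0.05 was found for 3 of 4 members, against 3.83% of all probe sets. The groups did not overlap with TAA higher for 2 of 4 members, against 4.48% of all probe sets. By size of difference Mt2 stood 9th, Mt1 28th and Mt3 74th from the top of the 34945 probe sets. The members were chosen with earlier results of these data known, so these shares and ranks are not independent evidence. The calls depended on 1 array. Without TAA day 7 replicate 3, the array of lowest Mt1, Mt2 and Mt3 in its group, limma called 3 of 4 members, at differences of 2.12 for Mt2 (adjusted p = 0.00639), 1.49 for Mt1 (adjusted p = 0.0295) and 1.18 for Mt3 (adjusted p = 0.00143), and 21 of all probe sets. Mt3 was at 0.46 without TAA day 7 replicate 2. TAA day 7 replicate 3 gave the lowest value of its group for Mt1, Mt2 and Mt3, so leaving it out favours a call. Nothing in the labels marks replicate 3 as faulty. With arrays weighted by how closely each follows its group, where TAA day 7 replicate 3 had the highest weight of all arrays (4.27), the differences were 0.67 for Mt2, 0.53 for Mt1 and 0.13 for Mt3, and 0 of 4 passed.

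Dexamethasone at day 7 left Mt1 and Mt2 somewhat above the same vehicle arrays and Mt3 at their level, with differences that did not pass. Mt2 had relative values of 0.06, 0.76 and 0.30 on the DEX arrays, against -0.09, -0.19 and -0.07 on the BSS arrays, a difference of 0.48 ± 0.38 (1.40-fold; 95% interval -0.31 to 1.28). Mt1 had 0.16, 0.45 and 0.24 on the DEX arrays, against 0.11, -0.02 and -0.08 on the BSS arrays, a difference of 0.28 ± 0.28 (1.22-fold; 95% interval -0.31 to 0.88). All 3 DEX arrays lay above all 3 BSS arrays in both, with DEX replicate 2 the highest and replicate 1 barely above vehicle. Mt3 had 0.04, -0.0041 and -0.03 on the DEX arrays, against 0.07, -0.01 and 0.0041 on the BSS arrays, and its difference was -0.02 ± 0.23 (95% interval -0.51 to 0.47). For the second Mt1 probe set the difference was -0.03 ± 0.12. By limma 0 of 4 members passed (adjusted p = 1 for each), 0 of 4 had an unadjusted p under 0.05, against 3.41% of all probe sets, and 0% of all probe sets passed. The groups did not overlap with DEX higher for 2 of 4 members, against 7.35% of all probe sets. Without DEX replicate 2, Mt2 was at 0.29. In this comparison 14 of 14 microglia markers (median 0.47) and 13 of 15 Müller glia markers (median 0.15) were above 0. Above 0 were also 2 of 15 pigment epithelium markers (median -0.54) and 2 of 15 lens genes (median -0.58), against 48.4% of all genes. The part of these cell types in the metallothionein values was not tested.

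Triamcinolone and dexamethasone are both fluorinated glucocorticoids, and dexamethasone carries a methyl group where triamcinolone carries an oxygen substituent on the D ring. They were compared at matched days, 1 pair of drugs on 2 days, without known doses. At day 7 all 4 member probe sets had higher means after TAA than after DEX. Mt2 differed by 1.05 ± 0.38 (2.07-fold; 95% interval 0.26 to 1.84), with 1.93, 2.08 and 0.26 on the TAA arrays, against 0.06, 0.76 and 0.30 on the DEX arrays. Mt1 differed by 0.81 ± 0.28 (1.76-fold; 95% interval 0.22 to 1.41) and Mt3 by 0.78 ± 0.23 (1.72-fold; 95% interval 0.29 to 1.27). A difference of 0.13 ± 0.12 (95% interval -0.11 to 0.37) was found for the second Mt1 probe set. The groups overlapped in all 4 members, so 0 of 4 were without overlap, against 12.6% of all probe sets. TAA replicate 3 lay within or below the DEX range for Mt1, Mt2 and Mt3. By limma 0 of 4 members passed (adjusted p = 0.713 for Mt2, 0.712 for Mt1, 0.656 for Mt3 and 0.919 for the second Mt1 probe set), and 0% of all probe sets passed. An unadjusted p under 0.05 was found for 3 of 4 members, against 6.28% of all probe sets. Without TAA day 7 replicate 3, Mt3 passed at 1.20 (adjusted p = 0.00171), while Mt2 at 1.63 (adjusted p = 0.109) and Mt1 at 1.21 (adjusted p = 0.183) did not. Mt3 was at 0.48 without TAA day 7 replicate 2. With array weights the differences were 0.19 for Mt2, 0.23 for Mt1 and 0.13 for Mt3, and 0 of 4 passed. In this comparison 15 of 15 measured lens genes were above 0 (median 0.56) and 0 of 14 microglia markers were (median -0.38), against 50.5% of all genes, and the part of either in the metallothionein values was not tested. These day 7 comparisons share arrays, so they are not independent of each other.

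**Figure D2:**
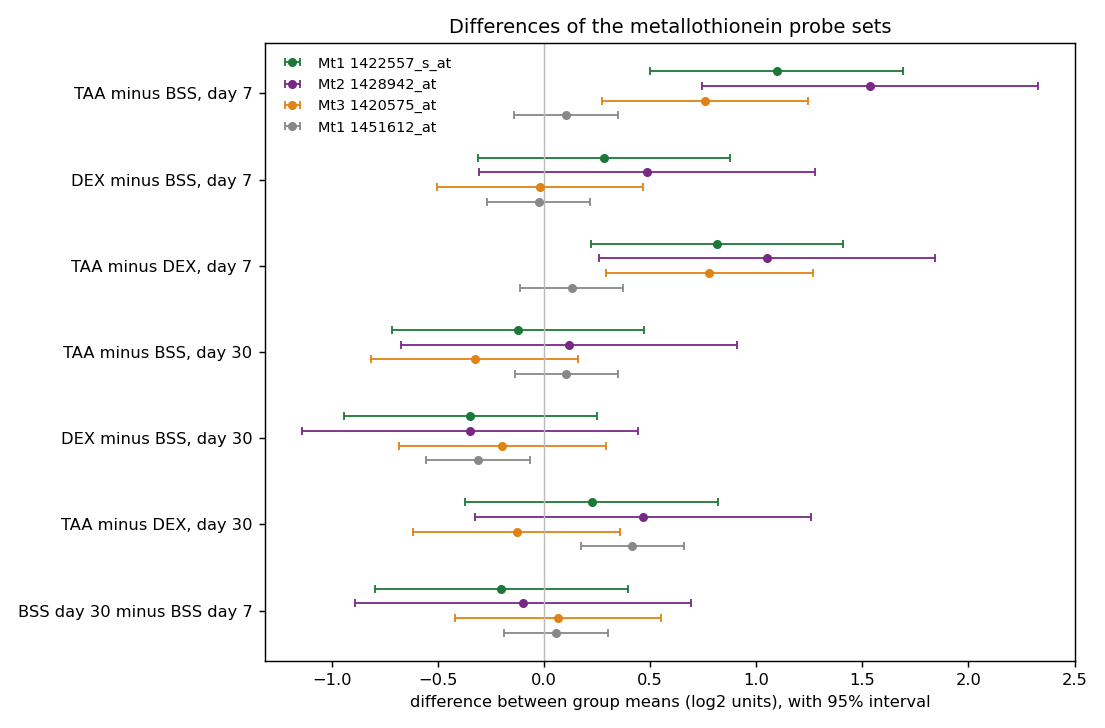
Differences between group means in log2 units (horizontal axis) with 95% intervals for the 4 metallothionein probe sets in 7 comparisons (vertical axis); positive values are higher in the group named first. For Mt1, Mt2 and Mt3 the intervals of TAA minus BSS and TAA minus DEX at day 7 lie above 0, and at day 30 all of theirs include 0. The intervals use an estimate of spread shared over the 6 groups.

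At day 30 no metallothionein was above vehicle by more than the spread between arrays. After TAA, Mt1 had relative values of 0.03, -0.83 and -0.17, against 0.02, -0.55 and -0.07 on the BSS day 30 arrays, a difference of -0.12 ± 0.28. Mt2 had 0.12, -0.37 and -0.06 after TAA, against -0.11, -0.65 and 0.11 in BSS, a difference of 0.12 ± 0.38. In both treatments 1 array lay well below its 2 group mates, replicate 2 of TAA and replicate 2 of BSS. Mt3 had -0.13, -0.15 and -0.44 after TAA, against 0.20, 0.04 and 0.02 in BSS, a difference of -0.33 ± 0.23 with all TAA arrays below all BSS arrays. That was 1 of 4 members whose groups did not overlap with TAA lower, against 7.11% of all probe sets. By limma 0 of 4 passed (adjusted p between 0.808 and 0.968), 0 of 4 had an unadjusted p under 0.05, against 7.03% of all probe sets, and 0% of all probe sets passed.

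After DEX at day 30 all 4 members were below vehicle in the mean. Mt2 had -1.07, -0.77 and 0.15 on the DEX arrays, against -0.11, -0.65 and 0.11 on the BSS arrays, a difference of -0.35 ± 0.38. Mt1 had -0.86, -0.66 and -0.12 on the DEX arrays, against 0.02, -0.55 and -0.07 on the BSS arrays, a difference of -0.35 ± 0.28. For both genes DEX replicates 1 and 2 lay below all 3 BSS arrays, while DEX replicate 3 lay within the BSS range for Mt1 and just above it for Mt2. Mt3 had -0.29, 0.02 and -0.06 on the DEX arrays, just below all BSS arrays, with a difference of -0.20 ± 0.23. The second Mt1 probe set had -0.48, -0.23 and -0.12 on the DEX arrays, against 0.20, 0.03 and -0.13 on the BSS arrays, and its difference of -0.31 ± 0.12 had a limma adjusted p of 0.37. By limma 0 of 4 passed (adjusted p between 0.37 and 0.76), 1 of 4 had an unadjusted p under 0.05, against 11.8% of all probe sets, and 0% of all probe sets passed. The groups did not overlap with DEX lower for 1 of 4 members, against 9.28% of all probe sets. Single arrays moved these values: Mt2 was at -0.71 without DEX day 30 replicate 3 and -0.098 without replicate 1, and Mt1 at -0.56 and -0.19. Without BSS day 30 replicate 2, Mt2 was at -0.57 and Mt1 at -0.52, and without BSS replicate 3 Mt2 was at -0.19. In this comparison 0 of 15 lens genes (median -1.61), 0 of 14 microglia markers (median -0.42) and 3 of 11 endothelial markers (median -0.25) were above 0. Above 0 were also 3 of 15 Müller glia markers (median -0.13) and 8 of 15 pigment epithelium markers (median 0.10), against 42.1% of all genes. The part of these cell types in the metallothionein values was not tested. With array weights, the second Mt1 probe set passed at -0.39 (adjusted p = 0.0171), in a setting that called 5200 of the 34945 probe sets in this comparison.

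TAA and DEX at day 30 differed by 0.47 ± 0.38 for Mt2 (95% interval -0.33 to 1.26), 0.22 ± 0.28 for Mt1 (95% interval -0.37 to 0.82) and -0.13 ± 0.23 for Mt3 (95% interval -0.62 to 0.36). These intervals include 0 and also differences of the size seen at day 7 for Mt2 (1.05) and Mt1 (0.81), but not for Mt3 (0.78). The second Mt1 probe set was at 0.07, 0.28 and 0.07 on the TAA arrays, against -0.48, -0.23 and -0.12 on the DEX arrays, without overlap, and differed by 0.42 ± 0.12 (limma adjusted p = 0.108). It was 1 of 4 members without overlap and TAA higher, against 8.49% of all probe sets, and 1 of 4 with an unadjusted p under 0.05, against 16.9%. After adjustment 0 of 4 members and 0% of all probe sets passed by limma. Without DEX day 30 replicate 3, the second Mt1 probe set passed at 0.49 (adjusted p = 0.0248), where 2798 of all probe sets passed as well. In this comparison 13 of 15 lens genes (median 1.89), 10 of 14 microglia markers (median 0.22) and 8 of 11 endothelial markers (median 0.18) were above 0. So were 6 of 15 Müller glia markers (median -0.02) and 10 of 15 pigment epithelium markers (median 0.08), against 52.3% of all genes. The part of these cell types in the metallothionein values was not tested.

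Vehicle retinas showed no called difference between the days in any member. BSS day 30 minus BSS day 7 was -0.20 ± 0.28 for Mt1, -0.10 ± 0.38 for Mt2, 0.07 ± 0.23 for Mt3 and 0.06 ± 0.12 for the second Mt1 probe set. By limma 0 of 4 passed (adjusted p between 0.891 and 0.965), against 0.0143% of all probe sets, and 0 of 4 had an unadjusted p under 0.05, against 7.1%. The vehicle arrays of Mt2 spread more at day 30 (SD 0.39) than at day 7 (SD 0.06), and those of Mt1 did so too (SD 0.31 and 0.10).

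The change of the TAA effect between the days (day 30 minus day 7, an interaction) was -1.42 ± 0.53 for Mt2, -1.22 ± 0.40 for Mt1, -1.09 ± 0.33 for Mt3 and 0.0018 ± 0.16 for the second Mt1 probe set. An unadjusted p under 0.05 was found for 3 of 4 members, and by limma 0 of 4 passed after adjustment (adjusted p = 0.838 for Mt2, 0.81 for Mt1 and 0.772 for Mt3), with 0% of all probe sets passing and 5.83% at an unadjusted p under 0.05. Without TAA day 7 replicate 3 the Mt3 interaction passed at -1.50 (adjusted p = 0.00669). With array weights the interactions were -0.497 for Mt2, -0.479 for Mt1 and -0.518 for Mt3, and 0 of 4 passed. The change of the DEX effect was -0.84 ± 0.53 for Mt2, -0.63 ± 0.40 for Mt1, -0.18 ± 0.33 for Mt3 and -0.29 ± 0.16 for the second Mt1 probe set, and 0 of 4 members (adjusted p between 0.641 and 0.913) and 0% of all probe sets passed.

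Averaged over both days, TAA minus BSS was 0.83 ± 0.27 for Mt2, 0.49 ± 0.20 for Mt1, 0.22 ± 0.16 for Mt3 and 0.10 ± 0.08 for the second Mt1 probe set. DEX minus BSS was 0.07 ± 0.27 for Mt2, -0.03 ± 0.20 for Mt1, -0.11 ± 0.16 for Mt3 and -0.17 ± 0.08 for the second Mt1 probe set. TAA minus DEX was 0.76 ± 0.27 for Mt2, 0.52 ± 0.20 for Mt1, 0.32 ± 0.16 for Mt3 and 0.27 ± 0.08 for the second Mt1 probe set. In these 3 averages 0 of 4 members and 0% of all probe sets passed by limma. Exact two-sided permutation tests of the labels within each day, over 400 splits and with a smallest possible p of 0.005, gave p = 0.055 for Mt2 and p = 0.18 for Mt1 after TAA against BSS. Of the 12 such tests the smallest was p = 0.015, an exact permutation test of the second Mt1 probe set for TAA against DEX, and they are not adjusted for their number. Within 1 day 3 arrays against 3 cannot give an exact permutation p below 0.1.

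Ordered by group mean, Mt1 ran from TAA day 7 (1.10 ± 0.70, SD) through DEX day 7 (0.28 ± 0.15), BSS day 7 (0.0031 ± 0.10), BSS day 30 (-0.20 ± 0.31) and TAA day 30 (-0.32 ± 0.45) to DEX day 30 (-0.55 ± 0.38). Only its first and second steps, to DEX day 7 and on to BSS day 7, exceeded the larger SD of the 2 neighbours. Mt2 ran from TAA day 7 (1.42 ± 1.01) through DEX day 7 (0.37 ± 0.36), TAA day 30 (-0.10 ± 0.25), BSS day 7 (-0.11 ± 0.06) and BSS day 30 (-0.22 ± 0.39) to DEX day 30 (-0.57 ± 0.64). Again only the first and second steps exceeded the larger SD. Mt3 ran from TAA day 7 (0.78 ± 0.75) through BSS day 30 (0.09 ± 0.10), BSS day 7 (0.02 ± 0.05), DEX day 7 (0.0012 ± 0.04) and DEX day 30 (-0.11 ± 0.16) to TAA day 30 (-0.24 ± 0.17), and none of its 5 steps exceeded the larger SD. The second Mt1 probe set had TAA day 30 highest (0.14 ± 0.12) and DEX day 30 lowest (-0.28 ± 0.18), and only its last step, between DEX day 7 and DEX day 30, exceeded the larger SD.

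Mt1 and Mt2 followed each other closely from array to array. Over the 18 arrays Pearson's r was 0.961 (permutation p = 1e-05, the smallest that 100000 resamples can give; adjusted over 6 pairs of probe sets p = 6e-05) and Spearman's rho was 0.843 (permutation p = 2e-05, adjusted p = 0.00012). Permutations moved values freely over the 18 arrays, not within groups, so the p of all pairs also take in differences between groups. Without the 2 arrays farthest from the median, TAA day 7 replicates 1 and 2, r was 0.896 over 16 arrays. For deviations from the group means r was 0.916. Within day 7 r was 0.979 and within day 30 it was 0.870, over 9 arrays each, both given as descriptions. The probes of a set whose name ends in _s_at can match several transcripts of like sequence, and how far that of Mt1 also reads Mt2 RNA was not tested. Mt3 stood apart from 0 mainly on 2 arrays, TAA day 7 replicates 1 and 2. Over the 18 arrays its r was 0.815 with Mt1 and 0.834 with Mt2, which rests largely on those 2 arrays. Over the other 16 arrays its r was 0.352 with Mt1 and 0.202 with Mt2.
The 2 probe sets of Mt1 disagreed, with a Pearson's r of 0.250 (permutation p = 0.312, adjusted p = 0.374) and a Spearman's rho of 0.179 (permutation p = 0.478, adjusted p = 0.717), and r was 0.299 without the same 2 arrays. On TAA day 30 replicate 2, for example, the second probe set was at 0.28 and the _s_at probe set at -0.83. The range over the 18 arrays was -0.48 to 0.28 for the second probe set, against -0.86 to 1.63 for the _s_at probe set. Which part of the Mt1 transcript each reads is not given in the sources used here.

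**Figure D3:**
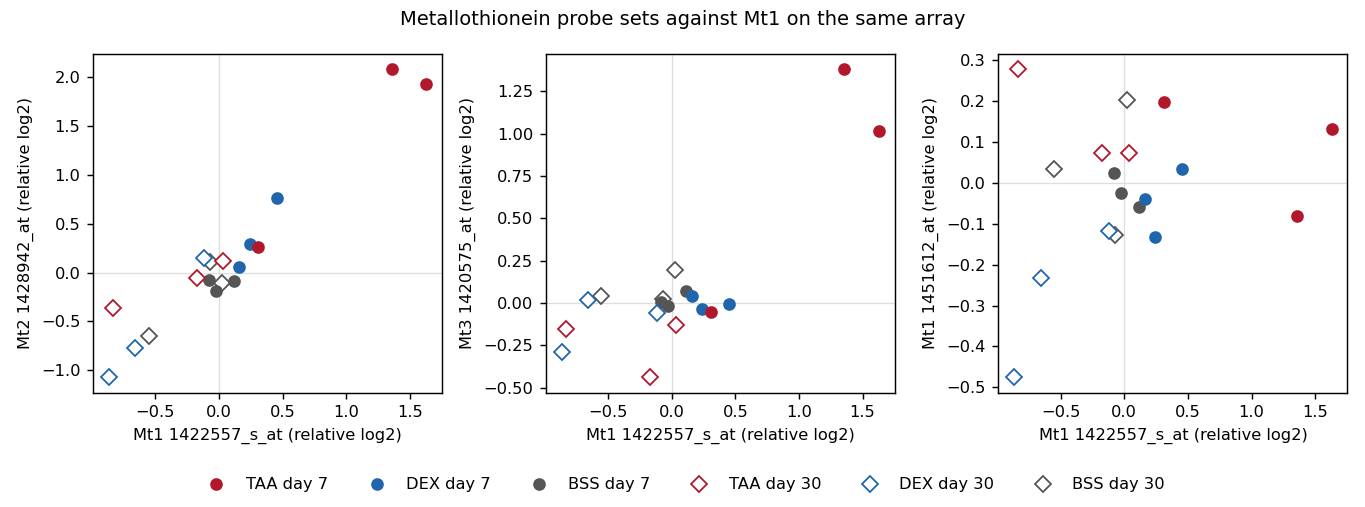
Relative log2 values of Mt2 (left), Mt3 (middle) and the second Mt1 probe set (right) on the vertical axes against Mt1 on the horizontal axis; each point is 1 of 18 arrays. Mt2 follows Mt1 over the whole range, Mt3 exceeds 0.20 only on TAA day 7 replicates 1 and 2 (1.01 and 1.38), and the second Mt1 probe set does not follow the first.

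Mt4, the metallothionein of stratified epithelia, lies at one end of the cluster and had 0.28, -0.11 and -0.06 on the TAA day 7 arrays, against 0.03, -0.12 and 0.01 on the BSS day 7 arrays, a difference of 0.06 ± 0.11. Of the 5 measured genes on each side of the cluster (Ces5a, Gnao1, Nudt21, Ogfod1 and Bbs2, and Nup93, Slc12a3, Herpud1, Nlrc5 and Cpne2), 0 of 10 passed in TAA minus BSS at day 7. Their differences ran from -0.14 (Ogfod1) to 0.31 (Slc12a3), with a median of 0.10, below those of Mt1, Mt2 and Mt3 in this comparison and around that of the second Mt1 probe set (0.10). For DEX minus BSS at day 7 they ran from -0.12 (Nudt21) to 0.17 (Gnao1), with a median of 0.05, and 0 of 10 passed. The DEX differences of Mt3 (-0.02) and the second Mt1 probe set (-0.03) lay within that range.

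**Figure D4:**
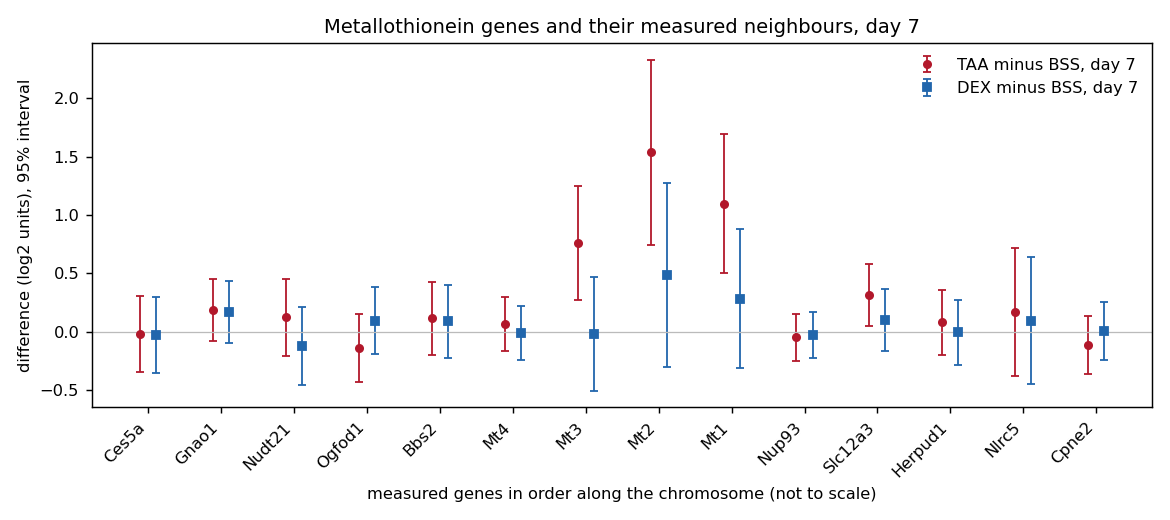
Difference from BSS at day 7 in log2 units with 95% interval (vertical axis) after TAA and after DEX for the metallothionein genes, 1 probe set per gene, and their measured neighbours in chromosome order (horizontal axis, not to scale). After TAA, Mt3, Mt2 and Mt1 stand at 0.76, 1.54 and 1.10, and the 10 genes outside the cluster and Mt4 lie between -0.14 and 0.31.

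The genes that regulate or accompany metallothioneins were read from lists, with 1 probe set per gene. Some genes stand on more than 1 list, so the lists are not independent of each other. Mtf1, which encodes the metal-responsive transcription factor, was at -0.01 ± 0.16 after TAA and -0.24 ± 0.16 after DEX relative to BSS at day 7, and at 0.12 ± 0.16 and -0.16 ± 0.16 at day 30. Nr3c1, the glucocorticoid receptor gene, was at -0.22 ± 0.13 after TAA and -0.23 ± 0.13 after DEX at day 7, and at 0.09 ± 0.13 and 0.26 ± 0.13 at day 30. Slc30a1, the zinc exporter that is itself a classical MTF-1 target, was at 0.0060, -0.19 and -0.0060 on the TAA day 7 arrays, against 0.06, 0.12 and 0.10 on the BSS day 7 arrays, a difference of -0.16 ± 0.15. Slc30a1 did not pass in this comparison (limma adjusted p = 1). After DEX at day 7 Slc30a1 was at -0.10 ± 0.15 against the same BSS arrays. At day 30 Slc30a1 was at -0.06 ± 0.15 after TAA and -0.14 ± 0.15 after DEX.

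Of the 25 genes of the zinc list (Mtf1, zinc exporters of the Slc30a family and importers of the Slc39a family), all 25 were measured. In TAA minus BSS at day 7, 0 rose and 0 fell, 10 were above 0 and the median was -0.02, against a median of -0.0007 over all 18193 genes, of which 49.8% were above 0. The members of smallest p were Slc39a8, a zinc importer, and Slc30a10, a metal exporter. Slc39a8 had 0.59 and 1.07 on TAA replicates 1 and 2, with replicate 3 at the median of the 18 arrays, against 0.0054, -0.05 and 0.10 on the BSS arrays, a difference of 0.53 ± 0.19, or 0.27 without replicate 2 and 0.81 without replicate 3. It was high on the same 2 arrays as Mt1, Mt2 and Mt3. Slc30a10 was at -0.39 ± 0.16. In DEX minus BSS at day 7 the zinc list had a median of -0.02 with 11 of 25 above 0, and 0 passed.

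Of 24 copper and iron genes 22 were measured, and 0 passed in either direction in TAA minus BSS at day 7, with 13 of 22 above 0 and a median of 0.06. The 2 members of smallest p were the ferroxidase genes Cp (1.26 ± 0.43) and Heph (0.59 ± 0.23). Cp had 0.83, 2.23 and -0.20 on the TAA arrays, against -0.18, -0.46 and -0.28 on the BSS arrays, again with replicate 3 near vehicle. Cp was at 0.62 and Heph at 0.34 without TAA day 7 replicate 2. Of 25 antioxidant genes 22 were measured, and 0 passed, with 11 of 22 above 0 and a median of -0.01. The glutathione transferase gene Gstm1 was at 0.82 ± 0.27 and the heme oxygenase gene Hmox1 at 0.35 ± 0.20. Hmox1 was at 0.10 without TAA day 7 replicate 2.

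A list of glucocorticoid response genes was also high in the mean on TAA day 7 replicates 1 and 2, where Mt1, Mt2 and Mt3 were high. The 30 genes of the glucocorticoid list, which leaves out the metallothioneins, averaged 0.56, 0.47 and 0.10 on TAA day 7 replicates 1, 2 and 3. They averaged between -0.03 and 0.02 on the DEX day 7 arrays and between -0.08 and -0.02 on the BSS day 7 arrays. In TAA minus BSS at day 7, 21 of 30 were above 0, against 49.8% of all genes, and 12 of 30 did not overlap with TAA higher, against 4.48% of all probe sets. That last share covers every probe set, while the list takes the probe set of widest interquartile range of each gene, so the shares are not matched. The median was 0.23 and 0 passed. The members of smallest p were the transcription factor gene Zbtb16 (0.83 ± 0.16) and the arrestin-domain gene Arrdc2 (1.02 ± 0.21). In DEX minus BSS at day 7, 13 of 30 were above 0 and the median was -0.03. On DEX day 7 replicate 2, Mt1 and Mt2 together averaged 0.61 and the list averaged 0.02. The list was chosen with earlier results of these data known, so its direction is not independent evidence. Whether steroid signalling takes part in the metallothionein difference was not tested.

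Reactive glia genes were also high on TAA day 7 replicates 1 and 2, with replicate 2 the higher. The 23 measured of 25 gliosis genes averaged 0.58, 1.63 and -0.0037 on TAA day 7 replicates 1, 2 and 3, between 0.33 and 0.48 on the DEX day 7 arrays, and between -0.43 and -0.10 on the BSS day 7 arrays. Mt1 and Mt2 together averaged 1.78, 1.72 and 0.28 on those TAA arrays, between 0.11 and 0.61 on the DEX arrays and between -0.11 and 0.01 on the BSS arrays. Of the gliosis genes 20 of 23 were above 0 in TAA minus BSS at day 7 with a median of 0.93, and 21 of 23 in DEX minus BSS with a median of 0.65, and 0 passed in either. The TAA median was 0.26 without TAA day 7 replicate 2, and with every probe set of each gene it was 0.43. The acute phase genes Saa3 (2.02 ± 0.39) and Serpina3n (2.98 ± 0.77) had the smallest p of the list after TAA. The gliosis and glucocorticoid lists share the gene that is highest in each for TAA minus BSS over both days (1.37), so they are not separate readings. Whether gliosis takes part in the metallothionein difference was not tested.

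Marker lists of other cell types gave these values beside the members. The 15 Müller glia markers averaged -0.12, 0.55 and -0.0013 on the TAA day 7 arrays, against -0.18 to -0.0030 on the BSS day 7 arrays, with 10 of 15 above 0 in TAA minus BSS. Cd9 was at 0.65 ± 0.20, or 0.39 without TAA day 7 replicate 2, and Glul at 0.33 ± 0.11. The 5 measured of 7 astrocyte markers averaged 0.61, 0.93 and 0.0019 on the TAA arrays, against -0.22 to 0.05 on the BSS arrays, with 3 of 5 above 0 in TAA minus BSS and a range of -0.39 to 1.25. Aldoc was at 1.25 ± 0.29 and Aldh1l1 at 0.95 ± 0.23. The 15 pigment epithelium markers averaged -0.28, 0.04 and -0.14 on the TAA arrays, against 0.13 to 0.25 on the BSS arrays, with 4 of 15 above 0 in TAA minus BSS. Kcnj13 was at -0.997 ± 0.215 and Rrh at 0.39 ± 0.15, or 0.59 without TAA day 7 replicate 1. The 15 measured of 17 lens genes averaged 0.93, -1.42 and -0.04 on the TAA day 7 arrays, against -0.32 to 0.18 on the BSS day 7 arrays. In TAA minus BSS 7 of 15 were above 0. The crystallin genes Cryba1 (-1.25 ± 1.50) and Crygs (-0.98 ± 1.45) changed sign without TAA day 7 replicate 2, at 0.27 and 0.34. Lens genes were highest on TAA day 30 replicate 3 (3.85), where Mt1 was at -0.17 and Mt2 at -0.06. The part of lens tissue in the metallothionein values was not tested.
The 14 measured of 15 microglia markers averaged -0.42, 0.66 and -0.23 on the TAA day 7 arrays, against -0.17 to 0.24 on the BSS day 7 arrays, with 6 of 14 above 0 in TAA minus BSS, a median of -0.04 and a range of -0.71 to 0.66. Cx3cr1 was at -0.71 ± 0.29 and Csf1r at -0.58 ± 0.30, or -0.34 and -0.29 without TAA day 7 replicate 1. The 11 measured of 12 endothelial markers averaged -0.17, 0.33 and 0.0027 on the TAA arrays, against -0.03 to 0.02 on the BSS arrays, with 5 of 11 above 0 in TAA minus BSS. Flt1 was at 0.57 ± 0.19, or 0.34 without TAA day 7 replicate 2, and Cdh5 at -0.21 ± 0.11. The 13 measured of 15 rod markers averaged between -0.17 and -0.05 on the TAA day 7 arrays, against -0.03 to 0.01 on the BSS day 7 arrays, with 2 of 13 above 0 in TAA minus BSS. Rcvrn was at -0.28 ± 0.16 and Gngt1 at -0.43 ± 0.27. Gngt1 was at -0.039 without TAA day 7 replicate 1, and between -0.66 and -0.25 without TAA replicate 2 or BSS replicate 1 or 2. By limma 0 members of these 7 lists passed in TAA minus BSS at day 7. Whether the share of any cell type moves the metallothionein values was not tested.

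**Figure D5:**
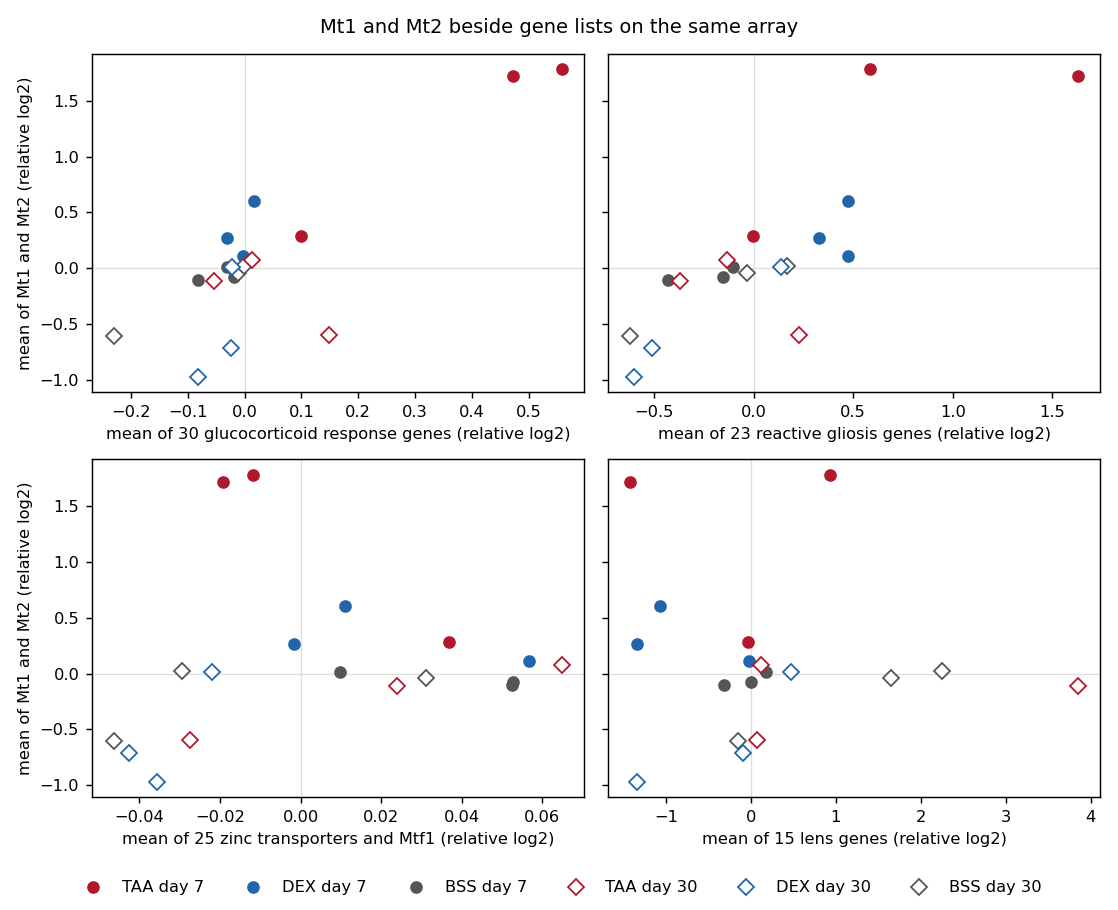
Mean relative log2 value of Mt1 and Mt2 (vertical axis) against the mean of 4 gene lists (horizontal axes, each on its own scale); each point is 1 of 18 arrays. TAA day 7 replicates 1 and 2 are high in Mt1 and Mt2 (1.78 and 1.72) and in the glucocorticoid list (0.56 and 0.47), while their lens values are 0.93 and -1.42 and the zinc list stays between -0.05 and 0.06 on the 18 arrays.

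Among 16310 named genes, the 5 whose values were most like the mean of the Mt1 and Mt2 probe sets over the 18 arrays were Htra1, a secreted serine protease (Pearson's r = 0.944), Prodh, proline dehydrogenase (0.903), Tsc22d4, a leucine zipper gene of the family of the steroid target Tsc22d3 (0.863), Cdt1, a DNA replication licensing factor (0.858), and Mgp, the matrix Gla protein (0.854). The same 5 came first when the second Mt1 probe set was left out of that mean. Htra1 had 0.79, 0.55 and 0.20 on the TAA day 7 arrays, against -0.11, -0.02 and 0.0044 on the BSS day 7 arrays, and -0.45, -0.41 and -0.0044 on the DEX day 30 arrays. Htra1 was thus high on TAA day 7 replicates 1 and 2 and low on DEX day 30 replicates 1 and 2, as Mt1 and Mt2 were. On DEX day 7 replicate 2 it was at 0.03, where Mt1 was at 0.45 and Mt2 at 0.76. Without TAA day 7 replicates 1 and 2 the r of these genes lay between 0.622 (Cdt1) and 0.858 (Htra1).
Mt3 had other leading genes, Slc39a8 (r = 0.907), the transglutaminase gene F13a1 (0.905), the acute phase gene Saa3 (0.902), the death receptor gene Fas (0.882) and Phlda3, a p53 target (0.855). Without TAA day 7 replicates 1 and 2 these r dropped to between 0.080 (Saa3) and 0.665 (Phlda3), so the likeness to Mt3 rests largely on those 2 arrays. The arrays share treatment groups, and the r are descriptions chosen as the highest of many.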

How the data were processed

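Retina RNA of 18 samples was measured on Affymetrix arrays, 1 array per sample. The deposited table holds log2 values made with RMA, per the submitters' processing notes, and the values themselves show that each probe set is centred on its median over the 18 arrays. The log base is RMA's usual one and is not stated in the sources used here. Groups came from the sample titles. Of 45101 probe sets, 64 controls, 932 that name several genes and 9160 unnamed here were left out, and limma 3.58.1 in R 4.3.3 was fitted to the other 34945 with a mean per group, 12 residual degrees of freedom and Benjamini-Hochberg adjustment at 0.05. Gene lists used 1 probe set per gene, the one of widest interquartile range. Genes named besides the members were Mtf1, Nr3c1 and Slc30a1, the 2 genes of smallest p for TAA minus BSS at day 7 in each list, 5 neighbours on each side, and the 5 genes most like the members. The members and lists were chosen with earlier results of these data known. Alternatives were other probe set selections, only the arrays compared, median centring, quantile normalization, robust eBayes, array weights, a replicate block and leaving out each array. The fits were tested on simulated data. The number of arrays limits the precision. The limma p-values set each difference against the spread between arrays within groups, pooled over the 6 groups and moderated across probe sets.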

Additional observations from a re-analysis of the deposited data

How the results depend on the processing

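Of 1260 alternative values of the 48 member differences, 1228 kept their direction and side of the threshold, 9 newly passed it, 0 lost a call and 23 changed sign. The number of members called was 0 in the reported fit of all 12 comparisons. Leaving out 1 array at a time gave 0 to 3 for TAA minus BSS at day 7, and 0 to 1 for TAA minus DEX at day 7, for the change of the TAA effect (each highest without TAA day 7 replicate 3) and for TAA minus DEX at day 30 (highest without DEX day 30 replicate 3). Array weights gave 1 for DEX minus BSS at day 30, for TAA minus DEX at day 30 and for TAA minus DEX over both days (0.34, limma adjusted p = 0.00603), each time the second Mt1 probe set. In these comparisons the same setting called 5200, 4356 and 4041 of all 34945 probe sets, in that order. The cause was not tested. Over all 34945 probe sets, TAA minus BSS at day 7 called 1 as reported, 3 with quantile normalization and 83 with array weights, and BSS day 30 minus BSS day 7 called 5, 54 and 658.

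None of the differences that changed sign passed in any of these settings. With quantile normalization Mt1 was at 0.028 for TAA minus BSS at day 30 and 0.027 for DEX minus BSS over both days, and the second Mt1 probe set at -0.10 for the change of the TAA effect (-0.0026 with median centring). With array weights that change was -0.12, Mt1 was at 0.049 for TAA minus BSS at day 30, Mt3 at -0.13 for TAA minus BSS and Mt2 at -0.11 for DEX minus BSS over both days, Mtf1 at 0.032 for TAA minus BSS at day 7 and Slc30a1 at 0.084 for TAA minus BSS at day 30. Leaving out 1 array gave, for TAA minus BSS at day 30, -0.30 to 0.13 for Mt1 and -0.10 to 0.28 for Mt2. For DEX minus BSS at day 7 it gave -0.066 to 0.016 for the second Mt1 probe set and -0.040 to 0.0066 for Mt3, and over both days -0.14 to 0.046 for Mt1 and -0.11 to 0.19 for Mt2. For BSS day 30 minus BSS day 7 it gave -0.027 to 0.14 for the second Mt1 probe set and -0.26 to 0.12 for Mt2, and for the change of the TAA effect -0.080 to 0.085 for the second Mt1 probe set. Among other named genes it gave -0.13 to 0.063 for Mtf1, -2.17 to 0.27 for Cryba1 and -1.92 to 0.34 for Crygs in TAA minus BSS at day 7, -0.032 to 0.21 for Nr3c1 and -0.23 to 0.11 for Slc30a1 in TAA minus BSS at day 30, and -0.32 to 0.028 for Slc30a1 in DEX minus BSS at day 30.

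The replicate block called 0 members in all 12 comparisons. In deviations from the group means, same-numbered arrays of different groups correlated at a median of 0.05 (-0.24 to 0.49, 16 of 45 pairs over 0.1). Differently numbered arrays of different groups correlated at a median of -0.01 (-0.57 to 0.43, 19 of 90 pairs over 0.1). The labels do not say that equal numbers mark pairs, and the reported fit did not take them as such. With 1 probe set per gene the second Mt1 probe set, and with the upper part of the interquartile range the second Mt1 probe set and Mt3, were not fitted.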
